A study of Equus caballus with 22 samples.

Results

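Articular cartilage and synovium from old horses were compared by sequencing the 3′ ends of their RNA. The comparison uses the 6 old cartilage and 5 old synovium samples, 11 of the 22 in the series, and leaves the young horses aside. Both tissues came from the metacarpophalangeal joint (the fetlock), were snap frozen, and belong to horses labelled wild type, in 1 labelled batch. The labels give the age only as old. They also state for every sample a treatment of cells with 4sU, a uridine analogue used to mark new RNA, which is at odds with frozen tissue, so no group here lacks that label. They do not say whether a cartilage and a synovium sample came from the same horse, nor whether the samples of a tissue came from separate horses. The p-values therefore measure the spread between these samples.

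Articular cartilage is an avascular matrix with chondrocytes as its resident cells, and it holds little RNA for its mass. Synovium lines the joint with fibroblast-like and macrophage-like cells over a stroma with blood vessels, fat and nerves. Most mammalian genes can end their transcripts at more than 1 cleavage and polyadenylation site. A site nearer the promoter (proximal) gives a shorter 3′ end than a distal one, and the choice differs between tissues and cell states. QuantSeq-Reverse reads start at the poly(A) end, so a pile of reads is taken here as a 3′ site and its count as the use of that site. The sequences around the sites were not read, so whether each pile is a true 3′ end was not tested. In bulk tissue, fewer cells of a type and less RNA per cell cannot be told apart, and this holds for every level below.

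Of 22613 genes listed for either tissue, 14621 were listed for both, and counts at all sites of a gene were summed for these. Sites of the same gene and strand whose intervals overlapped by at least 1 base were treated as the same site. By that rule 75774 of 322631 sites were found in both tissues, and these are called matched sites. The files name genes by Ensembl identifier alone, and 0 of 22613 identifiers could be paired with a symbol here. The identity of the tissues was therefore not checked against marker genes, and the 335 symbols in 19 gene lists drawn up for cartilage, synovial lining, vessels, fat, blood, inflammation, matrix turnover and 3′ end processing could not be read. Genes are given by identifier and position on EquCab3.0, the horse assembly named in the submitters' processing notes.

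Total counts ran from 2210038 to 2762287 in old cartilage and from 3499770 to 5664167 in old synovium. The most abundant gene was the same in all 11 libraries, ENSECAG00000009169 on chromosome 15, with 2.75 to 8.90% of the counts in cartilage and 2.52 to 3.67% in synovium. The tissues shared 3 of their 10 most abundant genes and 20 of their 50. Old cartilage libraries differed more among themselves than old synovium libraries did. Over the 7622 genes tested at matched sites, Spearman's rho between cartilage libraries had a median of 0.68 (0.52 to 0.79), that between synovium libraries 0.93 (0.79 to 0.95), and that between the tissues 0.68 (0.48 to 0.77), as a description of libraries of unequal depth. Old cartilage 2 had the lowest median rho with the other cartilage libraries, 0.62, and old cartilage 3 and 5 had a higher median rho with the synovium libraries (0.71 and 0.73) than with the other cartilage libraries (0.69 and 0.68).

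The old cartilage libraries held fewer genes and fewer 3′ sites than the old synovium libraries, and more of their counts lay in a few genes. With every library thinned to 2210038 counts, 9017 ± 735 genes (SD, n = 6) had a count in cartilage and 11951 ± 614 (SD, n = 5) in synovium. The tissues did not overlap, with 7673 to 9809 genes in cartilage and 11297 to 12822 in synovium (two-sided exact permutation test, p = 0.00433, adjusted p = 0.00541 over 5 library measures). That p is the smallest that the regroupings of 6 and 5 libraries can give. Old cartilage 2 held the fewest genes, 7673, and the fewest sites, 17779. Sites with a count numbered 27570 ± 6425 in cartilage and 68189 ± 12473 in synovium (p = 0.00433, adjusted p = 0.00541, exact permutation test). Each library was counted on the listing of its own tissue, with 138134 sites for cartilage and 262643 for synovium. The tissues were therefore not counted on a common list of sites. Counting only sites with at least 5 counts, the numbers were 20857 ± 5224 and 24167 ± 5141, and the tissues overlapped (exact permutation p = 0.338). The 50 most abundant genes took 30.2 ± 4.35% of the counts in cartilage and 23.0 ± 1.40% in synovium (exact permutation p = 0.0173, adjusted p = 0.0173). Old cartilage 5 had 23.0%, within the synovium range of 20.7 to 24.1%. Library complexity and tissue cannot be told apart in this design, since the ranges of detected genes do not overlap.

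**Figure D1:**
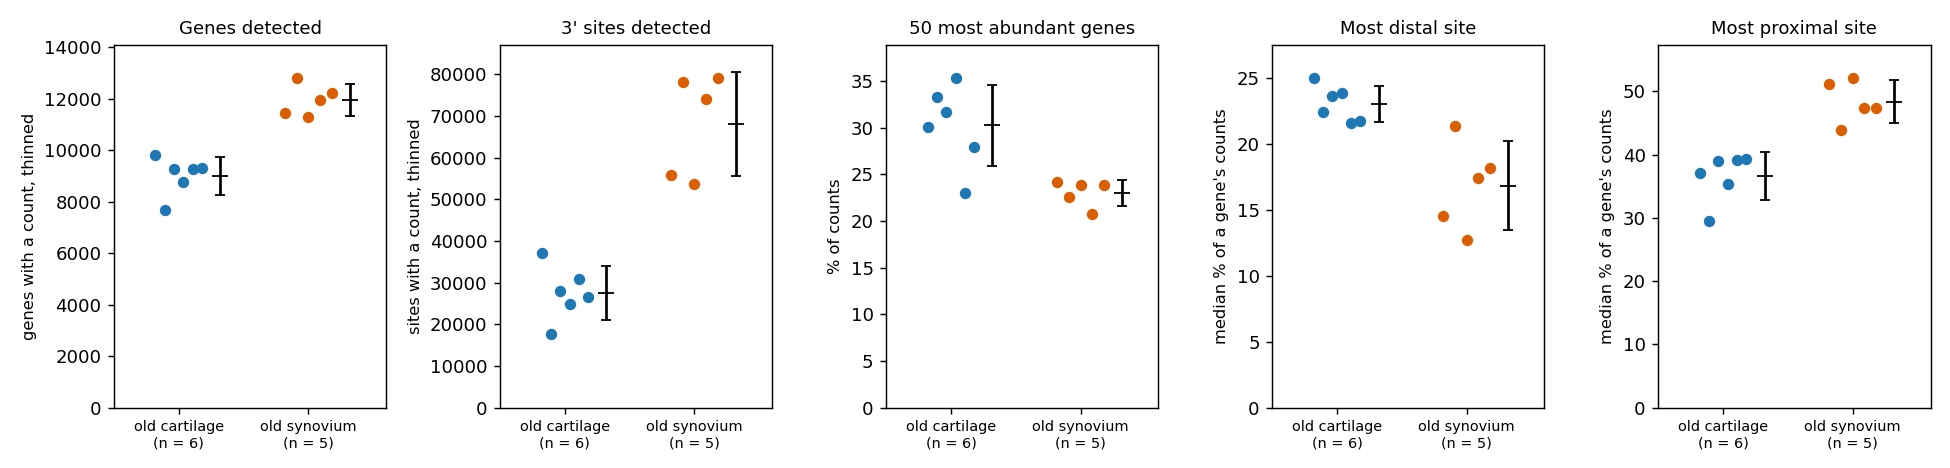
The 5 panels give measures of each library in old cartilage (blue, 6 libraries) and old synovium (orange, 5 libraries). They are genes with a count and 3′ sites with a count after thinning, then the percent of counts in the 50 most abundant genes. The others are the median percent per gene at the most distal and most proximal matched site, of the counts at matched sites kept for testing. Points are libraries and bars are the mean and SD; the tissues overlap in none of the panels but the third, and only there through old cartilage 5.

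Between the tissues, 1326 of 8631 genes tested on the sum of all their sites differed at an adjusted p under 0.05 (15.4%; edgeR quasi-likelihood test with Benjamini-Hochberg adjustment). Of these, 762 were higher in old cartilage (8.83% of the genes tested) and 564 higher in old synovium (6.53%), and 1267 differed by more than 2-fold. In 1389 genes (16.1%) the libraries of the tissues did not overlap. On matched sites alone, 460 of 7622 genes differed (6.04%), 270 higher in cartilage and 190 higher in synovium. That split was not firm either. It turned with limma-voom, to 400 higher in cartilage and 503 in synovium, and was nearly even without old cartilage 3, with 236 and 232. The sum over all sites and the sum over matched sites made the same call in the same direction for 431 genes, 254 higher in cartilage and 177 higher in synovium, with a difference over 2-fold on both sums for 403. Of the 1326 calls, 414 belonged to genes that could not be tested at matched sites, and 74 had the opposite sign there.

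The reason to give both counts is how the sites are listed. Of 6059 genes with counts in every old cartilage library, 755 (12.5%) were not listed for synovium, and of 12623 with counts in every old synovium library, 2026 (16.1%) were not listed for cartilage. That share changed little with the level, from 12.0% in the lowest of 4 equal classes of the cartilage genes by counts to 13.1% in the highest, and from 18.9 to 16.1% in synovium. For single sites of genes listed for both tissues, 13.1% of those with counts in every cartilage library had no partner, with 13.8% in the lowest class and 16.7% in the highest. In synovium 16.1% had none, falling from 26.6% in the lowest class to 7.18% in the highest. These shares cannot tell whether an unlisted gene or site had no reads or was left out of the listing. The comparisons with such genes and sites set to 0 were therefore not made. Genes listed for a single tissue are thus absent from every gene comparison, and sites so listed from those at matched sites. Where a gene's main site is listed for 1 tissue and a minor one for the other, the sum over all sites compares different sites.

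The share of genes called was higher where less of a gene's counts lay at matched sites. Among the 625 genes with under 10% of their counts there in either tissue, 481 were called on the sum over all sites (77.0%). Of these, 287 were higher in cartilage and 194 in synovium. This class also takes in genes with no counts in a tissue, which have no such share there. Such a gene can be called wherever its sites lie, and the part of such genes in the 77.0% was not tested. Among 3388 genes with 10 to under 90% at matched sites, 425 were called (12.5%), 281 higher in cartilage and 144 in synovium. Among the 4618 genes with at least 90% of their counts at matched sites in both tissues, 420 were called (9.09%), and the directions were closer to even, 194 higher in cartilage and 226 in synovium. Adjusted over those 4618 genes alone, 310 passed, 155 in each direction. The split by direction on the sum over all sites also turned with the scaling and the filter. Library size in place of TMM scaling, which moved the median log2 difference of all genes from -0.15 to -0.30, gave 683 genes higher in cartilage and 716 in synovium. Without a filter on low counts the numbers were 794 and 1025, and with limma-voom 911 and 1253.

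**Figure D2:**
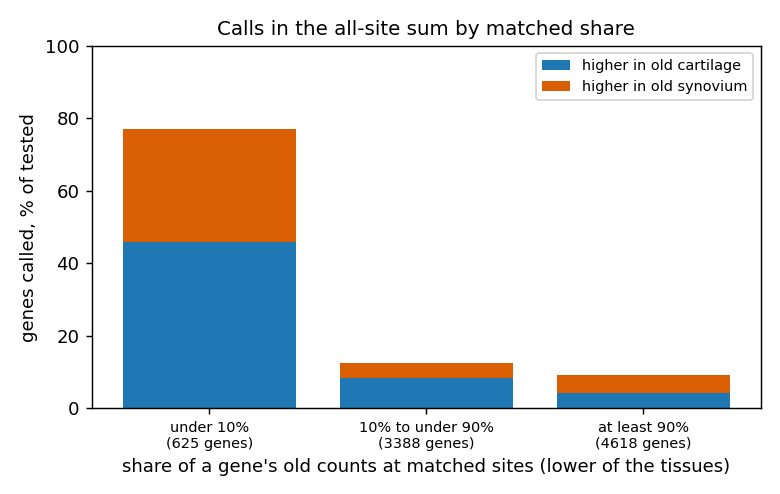
Percent of genes called on the sum of all listed sites, by the share of a gene's old counts that lies at sites listed for both tissues (the lower of the tissues). Genes with no counts in a tissue are placed in the lowest class. Bars are stacked by direction; 77.0% of 625 genes were called in the lowest class, 12.5% of 3388 in the middle and 9.09% of 4618 in the highest.

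**Figure D3:**
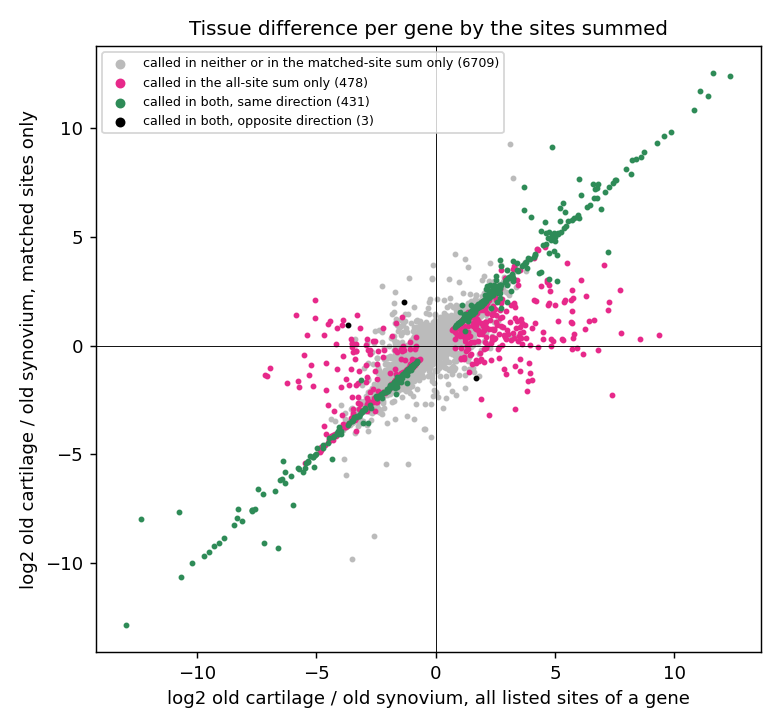
Each point is 1 gene tested on both sums, with the log2 difference of old cartilage over old synovium from all listed sites on the x axis and from matched sites on the y axis. The 431 genes called on both in the same direction lie along the diagonal, the 478 called on all sites alone are scattered off it, 71 of them with the opposite sign at matched sites, and 3 genes were called in opposite directions.

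At matched sites the genes higher in cartilage differed by a median of 2.48 on the log2 scale, and 263 of 270 differed by over 2-fold and 75 by over 16-fold. The genes higher in synovium differed by a median of 2.23, 172 of 190 by over 2-fold and 61 by over 16-fold. Calls were most frequent among abundant genes, with 47 of 1906 called in the lowest of 4 level classes (2.47%) and 275 of 1906 in the highest (14.4%). Genes with 10 or more matched sites were called higher in cartilage 96 times and higher in synovium 32 times of 2131, while those with 1 matched site were called 44 and 36 times of 732. Called genes lay on every autosome and on the X chromosome, from 2.66% of tested genes on chromosome 12 to 8.54% on chromosome 29, with 15 of 271 (5.54%) on X. At matched sites 30 genes had at least 10 counts in every synovium library and 0 in all 6 cartilage libraries, and 4 had the reverse. The call count at matched sites leaned on single libraries and on the test. Without 1 library at a time it ran from 319 (without old synovium 1) to 627 (without old cartilage 5). It was 876 with the DESeq2 Wald test and 903 with limma-voom.

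The genes with the largest differences among those that have at least 90% of their counts at matched sites in both tissues are described next, 2 in each direction. The 4 genes that the naming rule gave on the sum of all sites had nearly all counts of their higher tissue at unmatched sites. The genes described here were therefore picked after the values had been seen. They must also have passed the test at matched sites, reached there a mean of 100 CPM (counts relative to the library size, with TMM factors) in the higher tissue, and shown no overlap between the tissues. In all, 103 genes higher in cartilage and 111 higher in synovium met these conditions. A gene with no counts in a tissue has no such share there and could not be among them. Over all genes called at matched sites, the largest absolute log2 difference was 12.5 among those higher in cartilage. It was 12.8 among those higher in synovium.

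Among the genes that met these conditions, the furthest up in cartilage was ENSECAG00000018633 (chromosome 15, 3762921 to 3768311, plus strand). Its level was 24493, 20691, 32469, 24388, 5479 and 18610 CPM in old cartilage 1 to 6, and 2.64, 10.8, 13.5, 3.75 and 7.35 CPM in old synovium 1 to 5. Every cartilage library lay far above every synovium library, and old cartilage 5 was the lowest of its tissue. The means were 21022 ± 8966 CPM (SD, n = 6) and 7.61 ± 4.61 CPM (SD, n = 5), a log2 difference of 11.43 (SE 0.70, edgeR adjusted p = 3.11e-08). At its 2 matched sites, with 99.9% of its cartilage and 99.3% of its synovium counts, the log2 difference was 11.48 (edgeR adjusted p = 3.14e-07). The intervals of its main site overlapped by 49.1%.

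The next, ENSECAG00000014778 (chromosome 3, 27031631 to 27044042, minus strand), stood at 319, 710, 187, 536, 122 and 443 CPM in old cartilage 1 to 6. In synovium it had 3 counts in all, each of them in old synovium 2 (0.923 CPM). The groups did not overlap, and the cartilage libraries themselves ranged widely, again with old cartilage 5 the lowest. From 4551 counts in cartilage and 3 in synovium the ratio per library size was 2089, with an exact 95% interval of 714 to 10134 that covers counting error only. The fitted log2 difference was 10.84 (SE 0.89, edgeR adjusted p = 5.15e-07), and 10.81 at the matched site (edgeR adjusted p = 3.88e-06).

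In the other direction, ENSECAG00000031980 (chromosome 28, 18845164 to 18851827, plus strand) stood at 2092, 1389, 1097, 1642 and 2125 CPM in old synovium 1 to 5, a mean of 1669 ± 445 (SD, n = 5). It had 12 counts in old cartilage 1 (5.77 CPM) and 0 in the other 5 cartilage libraries. The log2 difference was -10.67 (SE 0.98, edgeR adjusted p = 2.01e-06), and -10.62 at the matched site (edgeR adjusted p = 3.53e-05). The groups did not overlap, and the cartilage counts came from 1 library. Its matched site is an interval of 107 nt in cartilage and of 1104 nt in synovium, with an overlap of 9.69%, and whether both mark the same 3′ end was not tested.

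ENSECAG00000016019 (chromosome 11, 5596048 to 5613006, minus strand) stood at 852, 738, 908, 876 and 628 CPM in old synovium 1 to 5, a mean of 800 ± 116 (SD, n = 5). It had 11 counts in old cartilage 6 (5.41 CPM) and 0 in the other 5 cartilage libraries. The log2 difference was -9.72 (SE 0.92, edgeR adjusted p = 2.20e-06), and -9.69 at the matched sites (edgeR adjusted p = 2.14e-05). As for ENSECAG00000031980, a single cartilage library held all of the cartilage counts, but not the same one. Its main site in synovium, with 14770 counts, had 0 counts in cartilage, where all 11 lay at another matched site that had 9 counts in synovium. The intervals of the main site overlapped by 40.6%. These 4 genes stayed past the threshold in the same direction in each of the 24 or 25 alternatives run for each.

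**Figure D4:**
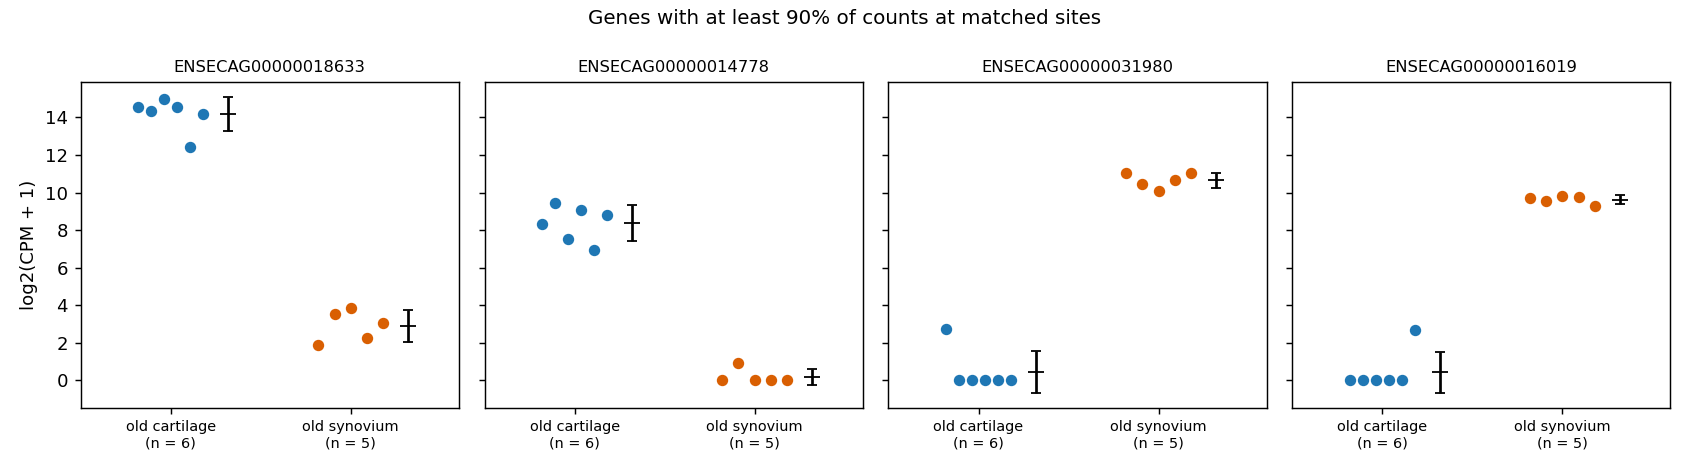
Level of 4 genes with at least 90% of their counts at matched sites (intervals that overlap by at least 1 base) in both tissues, as log2 of CPM + 1 per library, with the mean and SD of the logs. The 2 genes on the left lie higher in all 6 old cartilage libraries and the 2 on the right in all 5 old synovium libraries.

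The naming rule on the sum of all sites gave 4 other genes, which are listed here as values and not as tissue differences. ENSECAG00000028778 (chromosome 6, 34058977 to 34064216, minus strand) stood at 6044 ± 1975 CPM (SD, n = 6) in cartilage, at a site with no match in synovium, and at 0 in every synovium library at the 1 other site listed there. ENSECAG00000021956 (chromosome 12, 28904550 to 28905566, plus strand) stood at 9194 ± 2558 CPM (SD, n = 6) in cartilage, of which 0.0136% lay at its matched site. In synovium it had 1 count. ENSECAG00000002732 (chromosome X, 86039154 to 86048068, plus strand) and ENSECAG00000008396 (chromosome 15, 52851560 to 52911119, minus strand) stood at 980 ± 165 and 951 ± 96.7 CPM in synovium (SD, n = 5), with 0% of those counts at matched sites, and at 0 in cartilage. All 4 had no fitted value at matched sites, so whether they differ between the tissues was not tested.

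Among the tested matched sites of a gene, old cartilage put a larger share of counts at the most distal one than old synovium did. Shares here are of the counts at those sites, so unmatched sites and sites removed by the filter do not enter them. In 1704 genes with at least 2 matched sites and no library under 10 counts, the median share at the most distal site was 23.1 ± 1.36% in cartilage (SD, n = 6) and 16.9 ± 3.35% in synovium (SD, n = 5). The cartilage libraries ran from 21.6 to 25.1% and the synovium libraries from 12.8 to 21.4%, so they did not overlap, though by a narrow margin (difference 6.19 percentage points, exact permutation p = 0.00433, adjusted p = 0.00541). Old synovium 2 was the highest of its tissue at 21.4%, and it also held the most genes, 12822. The mean distal share was higher in cartilage in 1152 of the 1704 genes, higher in synovium in 550 and equal in 2. In 115 genes all cartilage libraries lay above all synovium libraries, and in 26 all lay below.

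The share at the most proximal site, added after the distal share had been seen, differed the other way. The genes were drawn from the 2733 tested for site use, of which 1613 had 2 tested sites. In such genes the proximal share is the remainder of the distal share, so the direction is not a separate result. It was 36.6 ± 3.79% in cartilage (29.5 to 39.2%) and 48.4 ± 3.36% in synovium (43.8 to 52.1%), 11.8 points lower in cartilage (exact permutation p = 0.00433, adjusted p = 0.00541). With only those sites whose intervals overlapped by at least 50% of each, the distal share was 6.48 points higher in cartilage over 1333 genes (exact permutation p = 0.00866), but the tissues then overlapped, with 24.2% in old synovium 2 and 23.7% in old cartilage 5. The part that depth and the number of detected sites play in these shares was not tested beyond thinning all libraries to 1 depth, after which the difference was 5.99 points (exact permutation p = 0.00433).

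Tested site by site, few genes stood apart. Of 7375 matched sites in 2733 genes, 87 differed in their use relative to the rest of the gene (1.18%, edgeR diffSpliceDGE, adjusted p under 0.05), 41 used more in cartilage and 46 less, and 405 had an unadjusted p under 0.05. In 82 of the 87 the shares did not overlap between the tissues, against 608 of all sites tested (8.24%). Combined per gene by the Simes method, 80 of 2733 genes differed (2.93%). Among called sites that were the most distal of their gene, 30 were used more in cartilage and 8 less. Among called sites that were the most proximal, 7 were used more and 28 less. The count rested on single libraries, with 169 sites without old cartilage 5 and 34 without old synovium 3, and so did the split. It was 47 more and 122 less without old cartilage 5, and 40 more and 91 less without old cartilage 1. With at least 10 counts in every library 31 sites were used more in cartilage and 4 less, out of 650 tested. Only 6 of these 35 calls were among the 87. Without a filter on low counts 29 were used more and 19 less, out of 67282 tested, and 32 of these 48 were among the 87. The filters thus differ widely in the sites they test, and their counts do not describe the same sites.

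A class of very short sites stood out among the calls, and its limit of 60 nt was set after it had been seen. Of the 7375 tested sites, 31 were at most 60 nt long in the cartilage listing. Of these, 18 were called more used in cartilage and 0 less used, and 30 had a higher mean share in cartilage, with a median share of 57.9% there and 0.488% in synovium. Of the 7344 longer sites, 23 were called more used and 46 less used. All sites of at most 60 nt in the cartilage listing, tested or not, held 0.513% of old cartilage counts. Those of the synovium listing, a different set, held 0.130% of old synovium counts. With matched sites this short in cartilage left out of the fit, 58 sites were called, of which 21 were used more in cartilage. The called genes then numbered 48. The median distal share was then 5.86 points higher in cartilage (exact permutation p = 0.0130), with an overlap between old synovium 2 at 21.7% and old cartilage 5 at 21.3%, and the proximal share 11.4 points lower (exact permutation p = 0.00433). Genes with over 50% of their cartilage counts at such sites made up 19 of the 270 genes called higher in cartilage at matched sites (7.04%), 4 of the 190 higher in synovium (2.11%) and 29 of the 7162 not called (0.405%). Without these sites, 416 genes were called at matched sites, 229 higher in cartilage and 187 in synovium. What these sites are was not tested.

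Sites were named for the 2 genes with the largest difference in mean share, and the first was of this class. In ENSECAG00000019940 (chromosome 1, minus strand) the distal site at 171700982 to 171701036 held 99.7 ± 0.851% of the counts at the gene's 2 tested sites in cartilage (SD, n = 6) and 1.46 ± 2.18% in synovium (SD, n = 5). The counts behind this were 141, 198, 169, 190, 123 and 203 in old cartilage 1 to 6, and 0, 2, 0, 1 and 0 in old synovium 1 to 5. Among the cartilage libraries old cartilage 5 had the fewest, and these counts are not scaled to library size. The other site, at 171919397 to 171919835, had 3 counts in all of cartilage and 219 in synovium. The log2 difference in use of the distal site was 4.02 (edgeR diffSpliceDGE, adjusted p = 0.00013, Simes adjusted p = 0.00011). The 2 tested sites held 82.8% of the gene's cartilage counts but 25.3% of its synovium counts, and the distal site is 55 nt long.

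ENSECAG00000024205 (chromosome 25, plus strand) was the other gene of that rule. Its proximal site at 29663541 to 29663824 held 99.9 ± 0.101% of the counts in synovium (SD, n = 5), with 177469 of 177666 counts. In cartilage it held 2.28 ± 4.09% (SD, n = 6), with 31 of 1579 counts, and old cartilage 6 was the highest at 10.5%. The next site, at 29663866 to 29664456, held 88.5 ± 9.79% in cartilage and 0.0986 ± 0.0908% in synovium. The log2 difference for the proximal site was -3.93 (edgeR diffSpliceDGE, adjusted p = 1.10e-05), and with limma-voom the adjusted p was 0.604. The proximal intervals in the 2 tissues overlapped by only 37.7%, from 284 nt in synovium and 107 nt in cartilage, and whether they mark the same 3′ end was not tested.

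For that reason 2 genes whose tested sites all overlapped by at least 50% were added, chosen after the values had been seen. By choice, 1 had a named site with a lower share in cartilage and the other a higher share. Their opposite directions are therefore not a result. In ENSECAG00000003758 (chromosome X, plus strand) the proximal site at 126763904 to 126764085 held 22.9, 3.92, 9.24, 7.21, 30.3 and 31.6% of the counts in old cartilage 1 to 6. It held 97.5, 98.6, 97.2, 97.9 and 97.5% in old synovium 1 to 5, from 156161 of 159828 counts. The distal site at 126765485 to 126765994 held 78.9 ± 12.4% in cartilage (SD, n = 6) and 2.14 ± 0.490% in synovium (SD, n = 5), with a log2 difference of 3.58 (edgeR diffSpliceDGE, adjusted p = 2.91e-05). The shares of both sites were far apart between the tissues. The call on the distal site was lost in 1 of 17 alternatives (limma-voom, adjusted p = 0.105) and that on the proximal site (log2 difference -1.55, adjusted p = 0.0466 by edgeR) in 11 of 17.

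ENSECAG00000030914 (chromosome 19, plus strand) was the gene picked for a higher share in cartilage. The proximal site at 21535844 to 21535890 held 96.7 ± 4.56% of the counts in cartilage (SD, n = 6; 1078 of 1115 counts) and 5.61 ± 6.78% in synovium (SD, n = 5; 9 of 176 counts). The log2 difference was 2.87 (edgeR diffSpliceDGE, adjusted p = 0.00782). This site is 47 nt long and of the short class too, and its call was lost in 2 of 16 alternatives, without old synovium 3 (edgeR adjusted p = 0.0551) and without a filter on low counts (edgeR adjusted p = 0.0996). The 2 tested sites held 90.4% of the gene's cartilage counts but 55.5% of its synovium counts.

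**Figure D5:**
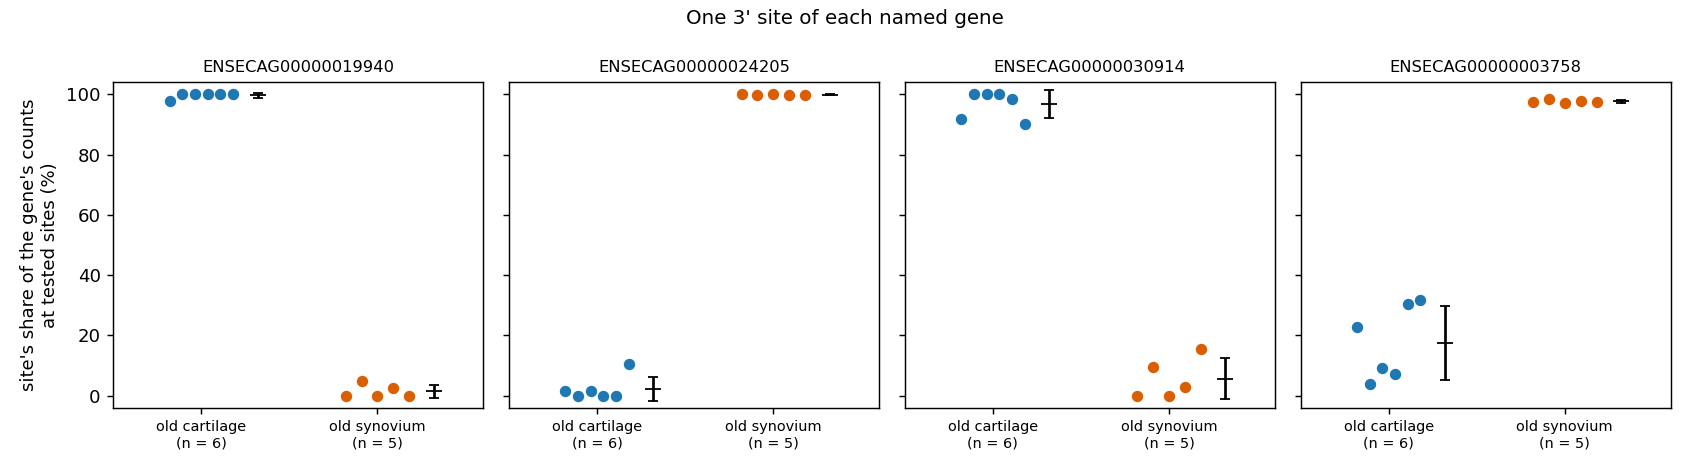
Percent of the counts over the tested sites of a gene that lies at 1 site, per library, with the mean and SD: the distal site of ENSECAG00000019940 and the proximal sites of ENSECAG00000024205, ENSECAG00000030914 and ENSECAG00000003758. In each gene the 6 old cartilage libraries and the 5 old synovium libraries lie apart.

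The site with most counts, the major site, was compared in 1533 genes with enough counts in every library. By mean share it differed between the tissues in 263 genes (17.2%). In 24 genes (1.57%) no cartilage library shared its major site with any synovium library, and the cartilage site lay downstream in 17 of these and upstream in 7. The major sites of these 24 genes lay a median of 14626.5 nt apart, under 1000 nt in 6 genes and over 10000 nt in 13. All 6 cartilage libraries had the same major site in 719 of the 1533 genes, and all 5 synovium libraries in 1236. These counts rest on unequal numbers of libraries.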

How the data were processed

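For each tissue the authors deposited a table of unnormalized read counts, whole numbers, with 1 line per 3′ site and the site's length in nt, per the file headers and the values. RNA from homogenised frozen tissue was purified with TRIzol and RNeasy kits and treated with DNase, and Lexogen made and sequenced the QuantSeq-Reverse libraries, per the labels' protocols. The build EquCab3.0 comes from the submitters' processing notes. The aligner, the calling of sites, the use of strand and the removal of duplicate reads are not given in the sources used here, so overlapping or near-identical genes are uncertain, and counting intervals cover counting error only.

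Groups came from the sample titles, and table columns were matched by name, with 0 left unused. Gene sums and matched sites were tested in R 4.3.3 with edgeR 4.0.16: filterByExpr (minimum count 10, minimum total 15), TMM, robust quasi-likelihood fit with tissue as the only term, and Benjamini-Hochberg adjustment at 0.05. Site use was tested with diffSpliceDGE in genes with at least 2 filtered matched sites. Library measures were compared with a two-sided exact permutation test. Major sites needed at least 20 counts per gene in every library. Alternatives used DESeq2 1.42.0 and limma 3.58.1. Other steps used Python 3.11.15, NumPy 2.4.6, pandas 2.3.3, SciPy 1.17.1 and Matplotlib 3.10.9. The tests were also run on simulated data with the same dispersion in both tissues. That run does not cover the unequal spread of these tissues.

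Genes were named by taking, among those past the threshold with a mean of at least 100 CPM and no overlap between tissues, the largest log2 differences, and 2 per direction since no symbols were at hand. Sites were named for the 2 genes with the largest difference in mean share of a site, among genes passing the Simes test with at least 20 counts in every library. The comparison, the lists and the tests were chosen with earlier results of these data known.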

Additional observations from a re-analysis of the deposited data

Results flagged for a closer look

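In 6 of the 31 groups of values examined for the named genes, named sites and library measures, 1 library lay apart from the rest of its tissue. Chance gives about 1.55 such groups of 31 where values are not tied. In 5 of the 6 the other libraries are tied at 0 or at 100%, where any 1 differing value stands apart, so that number does not apply to them. Of these, 4 are genes near 0 in 1 tissue: ENSECAG00000021956 at 0.312 CPM in old synovium 4, ENSECAG00000014778 at 0.923 CPM in old synovium 2, ENSECAG00000031980 at 5.77 CPM in old cartilage 1 and ENSECAG00000016019 at 5.41 CPM in old cartilage 6, each with 0 in the other libraries of the tissue. The distal site of ENSECAG00000019940 held 97.9% in old cartilage 1 and 100% in the other cartilage libraries. The proximal site of ENSECAG00000024205 held 10.5% in old cartilage 6, with 1.64% as the nearest value.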

How the results depend on the processing

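Named genes kept their direction and their call in every alternative run. The 4 genes of the naming rule could not be refitted at matched sites, so their alternatives do not test whether they differ between the tissues. Genes called on all sites numbered 1326, against 2164 with limma-voom, 460 at matched sites, 534 at matched sites without old cartilage 2, 416 at matched sites without those of at most 60 nt, and 310 among genes with at least 90% of their counts at matched sites. They ran from 1077 to 1449 when each library was left out in turn. Called sites (87) numbered 48 without a filter, 35 with at least 10 counts in every library, 380 with limma-voom, 45 with sites overlapping by at least 50%, and 34 to 169 when each library was left out. Genes by the Simes method (80) numbered 40, 34, 229 and 40 under these settings, 48 without sites of at most 60 nt, and 28 to 152 when each library was left out. The causes were not tested. In ENSECAG00000003758, the site from 126765090, not called, turned from 3.03 to -1.77 (log2) with limma-voom. Sites with at least 5 counts differed by -3310 (exact permutation p = 0.338). The labels do not pair the tissues: profiles of same-numbered libraries correlated at 0.0352 to 0.229, others at -0.286 to 0.249, and 2 of 5 synovium libraries correlated best with their own number. With the replicate number as a block, 1081 genes, 39 sites and 28 genes by the Simes method were called. The block gave differences of -2992 genes, -40434 sites, 6.46 points distal and -12.3 points proximal (sign-flip exact p = 0.0625, the smallest possible), and 7.66 points for the 50 most abundant genes (exact p = 0.125). Not run were the alternatives that set genes or sites listed for 1 tissue to 0. Thinning all libraries to 1 depth gave 1320 called genes. The biological coefficient of variation was 1.12 in cartilage and 0.440 in synovium.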

Other observations

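Levels varied more between old cartilage libraries than between old synovium libraries. Over 7597 genes the coefficient of variation of CPM had a median of 73.9% in cartilage and 29.1% in synovium, and it was higher in cartilage for 6803 genes and in synovium for 794. Old cartilage 5 was the lowest cartilage library for ENSECAG00000018633, ENSECAG00000014778, ENSECAG00000028778 and ENSECAG00000021956, the 4 named genes with the larger values in cartilage. For the last 2 of these, nearly all cartilage counts lay at sites not listed for synovium. Old cartilage 5 also had the smallest share of counts in ENSECAG00000009169 among the cartilage libraries, 2.75%.

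The cartilage listing held 20209 sites of at most 60 nt and the synovium listing 19784. Most had few counts, and 153 and 129 of them had counts in every old library of their tissue. The CPM of those varied by a median of 48.7% between cartilage libraries and 54.1% between synovium libraries, against 54.0 and 53.4% for longer sites with counts in every library.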
